A study of Capra hircus with 6 samples.

Results

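Lysosomal genes were examined in the ovaries of 2 goat breeds. The set comprised 40 genes for lysosomal proteases, glycosidases and sulfatases, lipid hydrolases with their activator proteins, membrane proteins, the proton pump, and regulators, chosen by gene symbol. Of these, 36 matched a gene among the 17504 in the deposited tables. CTSD, GUSB, ATP6AP1 and CST3 matched no symbol and were not analysed here. All 36 reached 1 FPKM (fragments per kilobase of transcript scaled by mapped fragments of the library) in every library, so the filter on low values removed none of them.

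The samples were ovaries taken in the follicular phase, when follicles mature before ovulation, from 3 Tibetan goats, which the labels call non-prolific, and from 3 Jintang black goats, which they call prolific. The animals are called Tibetan 1 to 3 and Jintang 1 to 3 after their titles, and each library is 1 goat. Neither breed had a treatment, and age, parity and the follicles on each ovary are not given. The question was which transcripts differ between the ovaries of the breeds. The FPKM of a library summed to between 602255 and 682801, and absolute depth is unknown. Ratios of the same gene at low values put no library at more than 1.11 times the depth of another. Only ratios near 1 were searched, so equal depth is not shown. Ovarian markers were present in every library: 10 granulosa cell markers summed to between 242 and 1342 FPKM in Tibetan and between 199 and 353 FPKM in Jintang ovaries, although FSHR was listed at 0 in Tibetan 1. No batch is named in the labels.

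Lysosomes are acidic organelles that break down proteins, glycans and lipids delivered by endocytosis, phagocytosis and autophagy. A vacuolar proton pump acidifies them, soluble hydrolases do the digestion, and heavily glycosylated membrane proteins line them. Many of these genes share a promoter element bound by the transcription factor TFEB. In the ovary, macrophages use lysosomes to clear dying follicle and luteal cells, and steroid-producing cells use them to release cholesterol from lipoproteins. Collagen and other matrix are also broken down by cathepsins when follicles and corpora lutea are remodelled.

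The main pattern among the 36 genes was a single ovary, Jintang 1, that stood above the others. The 36 genes together held 1.48% of all FPKM in Jintang 1, against 0.592% in Jintang 2, 0.564% in Jintang 3 and 0.524%, 0.585% and 0.697% in Tibetan 1, 2 and 3. Jintang 1 had the highest value of the 6 goats in 24 of the 36 genes, where 12.6% of all tested genes had their highest value in that library. It was above 2 times the mean of the other 5 goats in 17 of the 36, against 7.15% of all tested genes, a measure chosen after the values were seen. The lowest value fell in Tibetan 1 for 17 genes (21% of all tested genes) and in Jintang 2 for 12 (25.7%). Jintang 1 exceeded every Tibetan ovary in 28 of the 36 genes (18.5% of all tested genes), Jintang 2 in 6 (26%) and Jintang 3 in 10 (15.5%). Jintang 2 was below every Tibetan ovary in 12 (37.1%) and Jintang 3 in 3 (15.2%). Both lay inside the Tibetan range in 13, a count made for the 36 genes only. In RNA from bulk ovary, more cells of a type and more RNA per cell cannot be told apart.

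**Figure D1:**
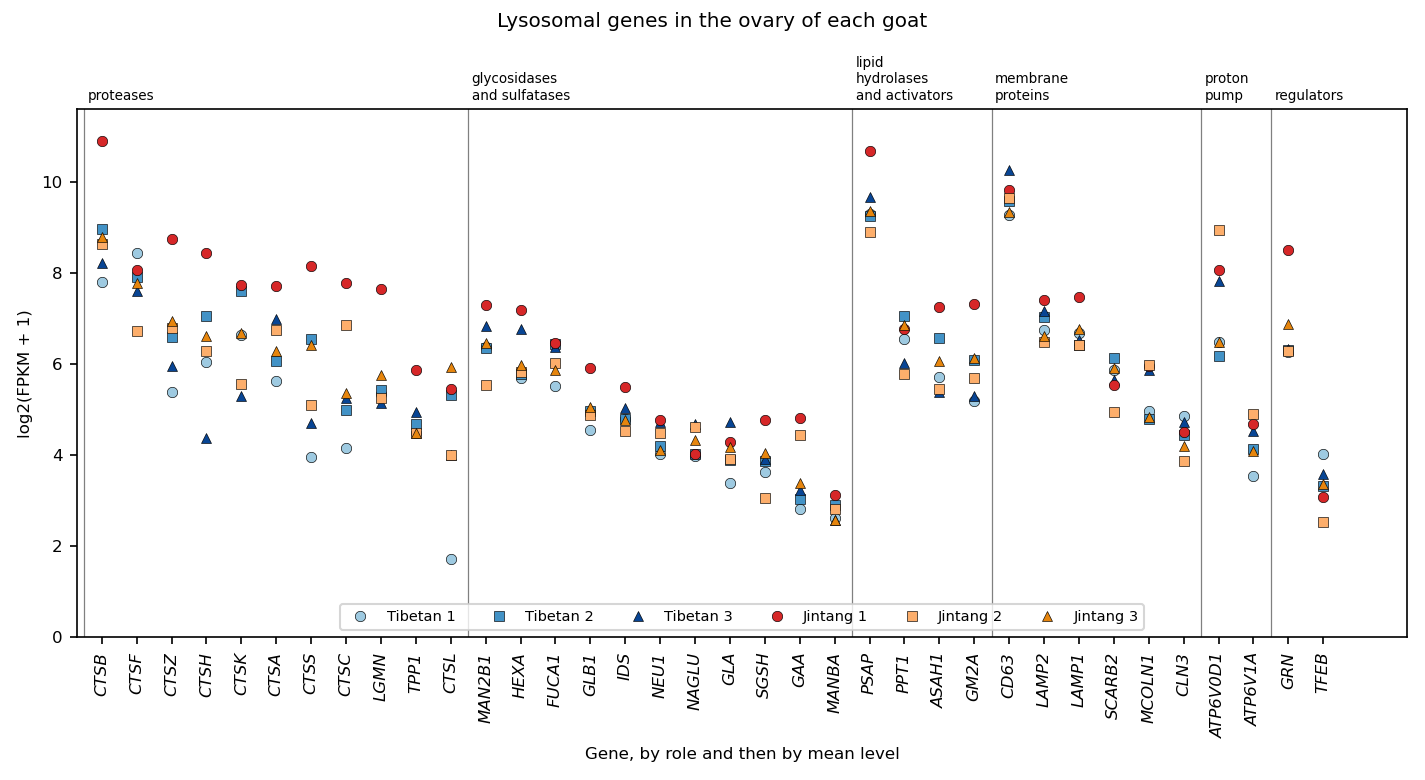
Expression of each of the 36 genes in each ovary, as log2(FPKM + 1) on the vertical axis, with genes on the horizontal axis grouped by role and ordered by mean level within a role. Each point is 1 goat (blue, Tibetan; red and orange, Jintang), and the red circles of Jintang 1 lie highest in 24 genes, with the widest gaps among the proteases and GRN.

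No gene of the set passed the test between the breeds. With limma on log2(FPKM + 1), 0 of the 36 had an adjusted p under 0.05, as did 0 of the 13067 genes tested (0%), and the smallest adjusted p in the set was 0.743. With an unadjusted limma p under 0.05, 3 genes were higher in Jintang ovaries (CTSC, CTSZ and GAA) and 0 lower, where all tested genes gave 2.82% higher and 3.35% lower. The same 3 genes were those whose breed ranges did not overlap, all with Jintang above Tibetan, against 3.2% of all tested genes in that direction and 6.7% in the other. The log2 fold change, a difference of mean log2(FPKM + 1), was positive (Jintang above Tibetan) in 28 of the 36 genes and in 41% of all tested genes. The median log2 fold change was 0.25 for the set and -0.10 for all tested genes. Scaling the libraries by median ratios shifted the median of all genes by 0.12 to 0.02, and the median of the set then stood at 0.37, with 31 genes positive against 51.8% of all tested genes. GLB1 and GRN were then also without overlap, which made 5 genes, against 4.65% of all tested genes.

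These breed values rested largely on Jintang 1. Without it the median log2 fold change of the set was 0.02, against -0.06 for all tested genes, and 19 of the 36 genes were positive, against 44.8%. The sign turned from positive to negative in 9 genes: ASAH1, CTSK, FUCA1, HEXA, IDS, NEU1, PSAP, SGSH and TPP1. CTSC was then the 1 gene with an unadjusted p under 0.05, where all tested genes gave 1.49% in that direction. In 31 of the 36 genes the difference between the breed means was smaller than the larger of the 2 within-breed SDs. That count was not made over all tested genes, so it does not set these genes apart. Leaving out 1 of the other goats gave between 2 genes (without Tibetan 1, against 1.23% of all tested genes) and 8 genes (without Jintang 2, against 2.92%) higher at an unadjusted p under 0.05. Without Jintang 2 there were 10 genes higher without overlap, against 5.95% of all tested genes: CTSC, CTSL, CTSZ, LGMN, GAA, GLB1, SGSH, GM2A, LAMP1 and GRN.

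**Figure D2:**
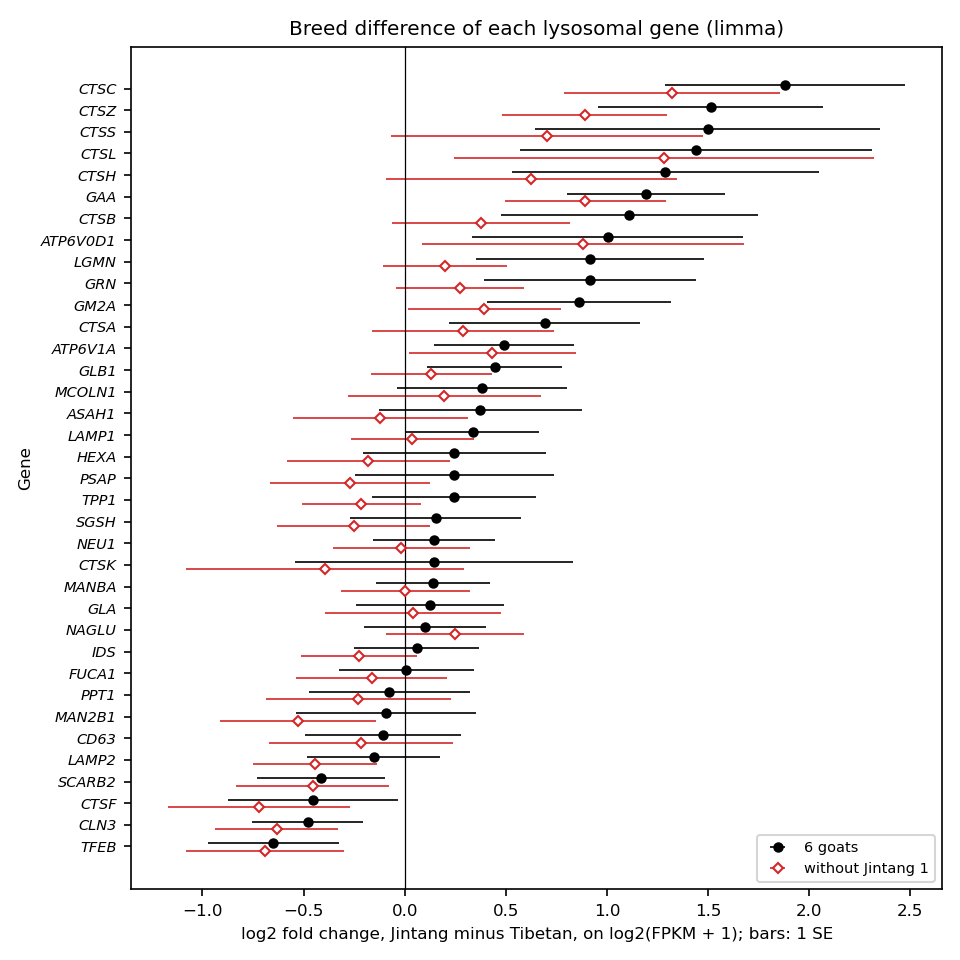
Log2 fold change of each gene, Jintang minus Tibetan, on the horizontal axis, with genes on the vertical axis ordered by the value from all 6 goats. Black circles use 6 goats and white diamonds leave out Jintang 1, bars are 1 SE from limma, and the median moves from 0.25 to 0.02.

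The proteases showed the widest spread between animals. They comprise cathepsins, most of them cysteine proteases that cut proteins inside lysosomes, together with LGMN and TPP1. Of 11 genes, 10 had a positive fold change, with a median of 1.11, and their summed FPKM was 918, 1463 and 880 in Tibetan 1, 2 and 3 and 4201, 1070 and 1324 in Jintang 1, 2 and 3. Jintang 1 was highest in 9 of the 11. Without it, 8 remained positive and the median was 0.38. Genes of this group differed by a median of 8.63 times between the highest and the lowest goat, against 2.46 times for all tested genes.

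CTSB (GeneID 102173295), an abundant cathepsin of most tissues, was the highest protease. It stood at 223, 503 and 300 FPKM in the Tibetan ovaries and at 1927, 400 and 442 FPKM in the Jintang ovaries. Jintang 1 was far above the other goats, at 5.16 times their mean, and Jintang 2 and 3 lay below Tibetan 2. The breed means were 342 ± 144 and 923 ± 870 FPKM (SD, n = 3), with a log2 fold change of 1.11 (SE 0.64, 0.38 without Jintang 1) and a limma adjusted p of 0.743.

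CTSC (GeneID 102190937), which activates granule serine proteases of immune cells, had the largest fold change of the set. Its values were 16.8, 30.7 and 37.1 FPKM in the Tibetan ovaries and 221, 116 and 40.4 FPKM in the Jintang ovaries. Every Jintang ovary was above every Tibetan ovary, though Jintang 3 exceeded Tibetan 3 by a small margin, and after scaling each library to the same sum the ranges overlapped. The log2 fold change was 1.88 (SE 0.59, limma adjusted p = 0.743), and 1.32 without Jintang 1. Across the alternatives its adjusted p ran from 0.125 (without Jintang 3) to 0.999 (without Tibetan 1).

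CTSZ (GeneID 102175417), a carboxypeptidase common in macrophages, was also without overlap, at 41.2, 96.6 and 61.3 FPKM in the Tibetan goats and at 428, 111 and 123 FPKM in the Jintang goats. Tibetan 2 was the nearest to Jintang 2 and 3, and Jintang 1 was 4.95 times the mean of the other 5. The log2 fold change was 1.51 (SE 0.56, limma adjusted p = 0.743), and 0.89 without Jintang 1.

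CTSS, which trims the invariant chain during antigen presentation in myeloid cells, had the greatest excess of Jintang 1, at 5.67 times the mean of the others. It was at 14.5, 92.4 and 25.0 FPKM in the Tibetan goats and at 284, 33.6 and 84.8 FPKM in the Jintang goats. Tibetan 2 and Jintang 3 followed Jintang 1, so that the breeds overlapped. CTSH, an aminopeptidase, was at 65.3, 133 and 20.0 FPKM in the Tibetan goats and at 348, 77.6 and 97.8 FPKM in the Jintang goats, with Tibetan 2 second to Jintang 1. LGMN, an asparagine-specific protease that processes other cathepsins, was nearly level in 5 goats, from 34.7 to 53.2 FPKM, and stood at 202 FPKM in Jintang 1.

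In CTSL, a cysteine protease of broad specificity, Jintang 3 led. It was at 2.32 FPKM in Tibetan 1, 39.1 and 15.03 FPKM in Tibetan 2 and 3, and 42.6, 15.04 and 60.1 FPKM in Jintang 1, 2 and 3. Its lowest and highest goats differed by 25.9 times, the widest range of the 36 genes, and both breeds held low and high ovaries. CTSV, a cathepsin outside the set, was above CTSL in every goat, at 63.4 to 109 FPKM. Sharing of reads between CTSL and CTSV was not tested. CTSK, a collagen-degrading cathepsin best known from osteoclasts, was high in Tibetan 2 (196 FPKM) and Jintang 1 (213 FPKM), intermediate in Tibetan 1 (98.6) and Jintang 3 (103), and low in Tibetan 3 (38.7) and Jintang 2 (46.2). Its log2 fold change of 0.14 (SE 0.69) became -0.40 without Jintang 1 and -0.46 without Tibetan 3.

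CTSF, another cysteine cathepsin, was the 1 protease with a negative fold change. It had its highest value in Tibetan 1 (346 FPKM), followed by Jintang 1 (267), Tibetan 2 (239), Jintang 3 (220), Tibetan 3 (193) and Jintang 2 (106). Its log2 fold change was -0.45 (SE 0.42, limma adjusted p = 0.801), and it rested on single goats, at -0.06 without Jintang 2, -0.22 without Tibetan 1 and -0.72 without Jintang 1. CTSA, the carboxypeptidase that protects beta-galactosidase and neuraminidase in a complex, ranged from 48.8 to 126 FPKM over the Tibetan goats and from 77.8 to 211 over the Jintang goats. TPP1, an aminopeptidase whose loss causes a childhood form of neuronal ceroid lipofuscinosis, lay between 21.5 and 30.0 FPKM in 5 goats and at 57.6 FPKM in Jintang 1.

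**Figure D3:**
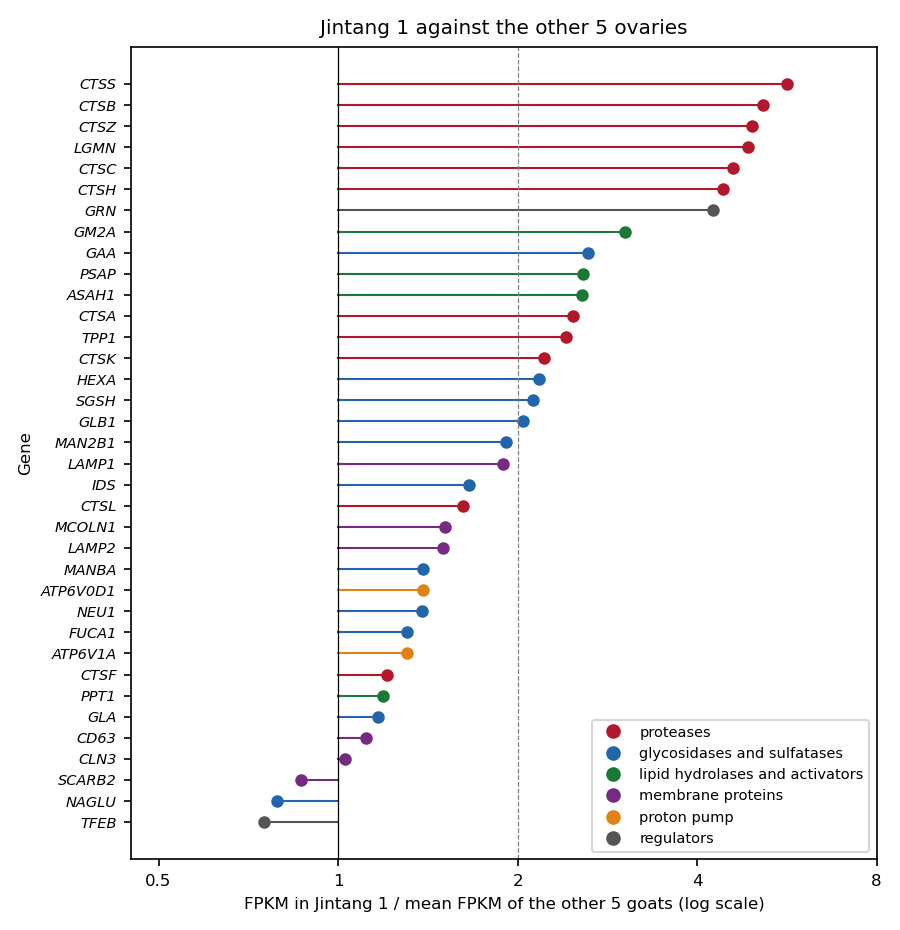
Ratio of the FPKM in Jintang 1 to the mean FPKM of the other 5 goats for each gene, on a log axis, coloured by role; the dashed line marks a ratio of 2. The ratio exceeds 4 in 6 proteases and GRN, reaches 5.67 in CTSS, and is below 1 in SCARB2, NAGLU and TFEB.

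Glycosidases and sulfatases, which remove sugars and sulphate groups from glycoproteins, glycolipids and glycosaminoglycans, were closer together. Their fold changes were positive in 10 of 11 genes, but the median was 0.14, and without Jintang 1 it was -0.02 with 5 positive. Summed FPKM was 290, 352 and 471 in the Tibetan ovaries and 614, 309 and 349 in the Jintang ovaries. Jintang 1 was highest in 9 of the 11 genes, and its ratio to the mean of the others had a median of 1.66 over the group, against 4.42 over the proteases.

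GAA (GeneID 102175798), which breaks down glycogen inside lysosomes, was the gene of this group without overlap. It stood at 6.11, 7.17 and 8.41 FPKM in the Tibetan goats and at 27.3, 20.9 and 9.53 FPKM in the Jintang goats. Jintang 1 and 2 were both well above the Tibetan goats, and Jintang 3 was near Tibetan 3. The log2 fold change was 1.19 (SE 0.39, limma adjusted p = 0.743), 0.89 without Jintang 1 and 1.08 without Jintang 2.

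MAN2B1, an alpha-mannosidase, was the most abundant enzyme of this group. It was at 82.2, 80.9 and 114 FPKM in the Tibetan goats and at 157, 45.4 and 87.3 FPKM in the Jintang goats, so that Jintang goats held both the highest and the lowest value. Its log2 fold change was -0.09 (SE 0.44) and became 0.03 with median-ratio scaling. HEXA, which takes part in ganglioside breakdown, was highest in Jintang 1 (144 FPKM) and Tibetan 3 (109 FPKM) and lay between 50.8 and 62.5 FPKM in the other 4.

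GLB1, the beta-galactosidase of the complex held by CTSA, lay between 22.5 and 32.5 FPKM in 5 goats and at 59.3 FPKM in Jintang 1. NEU1, the neuraminidase of that complex, lay between 15.3 and 26.6 FPKM with a log2 fold change of 0.14 (SE 0.30). The 3 genes of the complex therefore differed in how far Jintang 1 stood out, at 2.48 times the mean of the others for CTSA, 2.04 times for GLB1 and 1.38 times for NEU1. SGSH, a sulfamidase of heparan sulphate breakdown, ranged from 11.4 to 14.1 FPKM in Tibetan ovaries and was at 26.4, 7.36 and 15.6 FPKM in the Jintang ovaries, again with both extremes in that breed. NAGLU, which acts on the same glycan, went the other way in Jintang 1, at 15.4 FPKM, and was highest in Tibetan 3 (24.7 FPKM).

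The other enzymes of this group had breed means close to each other. FUCA1, a fucosidase, had a mean of 71.0 ± 22.4 FPKM in the Tibetan and 69.7 ± 15.6 FPKM in the Jintang goats (SD, n = 3), with a log2 fold change of 0.01 (SE 0.33). IDS, which removes sulphate from iduronate, averaged 28.5 ± 2.72 and 31.0 ± 11.81 FPKM, and GLA, an alpha-galactosidase, 16.3 ± 8.25 and 16.6 ± 2.31 FPKM. MANBA, a beta-mannosidase, was the lowest gene of the set at 5.53 ± 0.85 and 6.25 ± 1.35 FPKM, and its highest goat was 1.56 times its lowest.

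The lipid group followed Jintang 1 in 3 of 4 genes. PSAP (GeneID 102173365), the precursor of the saposins that present sphingolipids to their hydrolases, was the second most abundant gene of the set. It stood at 629, 608 and 821 FPKM in the Tibetan goats and at 1645, 482 and 659 FPKM in the Jintang goats. Jintang 1 was highest and Jintang 2 lowest of all 6, and the log2 fold change of 0.25 (SE 0.49, limma adjusted p = 0.910) became -0.27 without Jintang 1. GM2A, the activator that lifts ganglioside GM2 out of membranes for its hydrolysis, was at 35.5, 67.0 and 38.6 FPKM in the Tibetan goats against 159, 51.0 and 69.9 in the Jintang goats. Its log2 fold change was 0.86 (SE 0.45), and 0.39 without Jintang 1.

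ASAH1, the acid ceramidase, was at 51.8, 94.2 and 40.7 FPKM in the Tibetan goats and at 152, 43.1 and 66.7 FPKM in the Jintang goats. PPT1, which removes palmitate from proteins, had no such peak: Tibetan 2 (132 FPKM), Jintang 3 (115) and Jintang 1 (109) were highest, and Jintang 2 (54.0) was lowest. Its log2 fold change was -0.08 (SE 0.40), and 0.05 with median-ratio scaling.

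Membrane proteins of the lysosome had no excess comparable to that of the proteases. Of 6 genes, 2 had a positive fold change, and the median was -0.13 (-0.33 without Jintang 1). The summed FPKM of 1385 in Jintang 1 was below the 1599 of Tibetan 3, but CD63 alone gave 1231 of the latter. By the mean of log2(FPKM + 1) over the 6 genes Jintang 1 was highest, at 6.79 against 6.23 to 6.70 in the other goats. CD63 (GeneID 102178984), a tetraspanin of late endosomes and exosomes, was the most abundant gene of the set. It was at 621, 773 and 1231 FPKM in the Tibetan goats and at 908, 799 and 653 FPKM in the Jintang goats, with the Jintang values inside the Tibetan range. Its log2 fold change was -0.11 (SE 0.39, limma adjusted p = 0.953), and 0.02 with median-ratio scaling.

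The structural proteins LAMP1 and LAMP2, which coat the inner face of the lysosomal membrane, were both highest in Jintang 1. LAMP1 lay between 84.8 and 108 FPKM in 5 goats and at 179 FPKM in Jintang 1. LAMP2 was at 108, 130 and 143 FPKM in the Tibetan goats and at 170, 88.3 and 97.2 FPKM in the Jintang goats, with Jintang 2 and 3 below every Tibetan ovary. SCARB2, a membrane protein that takes part in enzyme delivery to lysosomes, was lowest in Jintang 2 (29.9 FPKM) and Jintang 1 (45.9 FPKM) and lay between 49.2 and 69.0 FPKM in the others.

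CLN3, a membrane protein mutated in juvenile Batten disease, had a mean of 24.8 ± 3.60 FPKM in the Tibetan and 17.7 ± 3.99 FPKM in the Jintang goats (SD, n = 3), with a log2 fold change of -0.48 (SE 0.27, limma adjusted p = 0.743). Its Jintang values of 21.7, 13.7 and 17.5 FPKM overlapped the Tibetan range through Jintang 1, which was above Tibetan 2 (20.9 FPKM). MCOLN1, the calcium channel mucolipin 1, had 2 levels that crossed the breeds. It was at 57.3, 61.6 and 62.2 FPKM in Tibetan 3, Jintang 1 and Jintang 2, and at 30.4, 26.8 and 27.5 FPKM in Tibetan 1, Tibetan 2 and Jintang 3.

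The proton pump genes ordered the goats in another way. ATP6V0D1 (GeneID 102178477), a subunit of the membrane sector, was at 88.8, 71.5 and 228 FPKM in the Tibetan goats and at 270, 496 and 88.4 FPKM in the Jintang goats. Jintang 2, Jintang 1 and Tibetan 3 were high, in that order, and the other 3 goats were low, so each breed had both kinds of ovary. The log2 fold change was 1.00 (SE 0.67, limma adjusted p = 0.758), and it was 0.45 without Jintang 2, 1.51 without Tibetan 3 and 1.68 without Jintang 3. ATP6V1A, the catalytic subunit of the cytosolic sector, had the same 3 goats on top over a narrower range, at 10.8, 16.6 and 22.1 FPKM in the Tibetan goats against 24.7, 29.1 and 16.1 in the Jintang goats.

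Those 3 goats were also the highest by the summed FPKM of 9 luteal and steroidogenic markers. The sum was 24414 in Jintang 2, 6560 in Jintang 1 and 3221 in Tibetan 3. It was 405, 649 and 588 FPKM in Tibetan 1, Tibetan 2 and Jintang 3. TIMP1 alone gave 9215 FPKM of that sum in Jintang 2, 5304 in Jintang 1 and 1298 in Tibetan 3, so the order of Jintang 1 and Tibetan 3 rested on it. PTGFR was at 274 FPKM in Jintang 1 and 259 in Jintang 2, but was lowest in Tibetan 3, at 9.23 FPKM. STAR, which moves cholesterol into mitochondria, was at 3130 FPKM in Jintang 2 and at 139 FPKM in both Jintang 1 and Tibetan 3. LHCGR, the luteinizing hormone receptor, was highest in Tibetan 3 (53.4 FPKM) and Jintang 2 (28.8 FPKM) and stood at 5.71 FPKM in Jintang 1. None of the markers was at 0 in any goat. The 3 ovaries differed in the 10 granulosa cell markers, which summed to 1342 FPKM in Tibetan 3 (1194 from INHA), 199 in Jintang 1 and 329 in Jintang 2. The part of luteal or other steroid-producing cells in the pump and MCOLN1 values was not tested.

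Of the 2 regulators, GRN had a higher mean in Jintang ovaries and TFEB a lower one, and neither passed the test. GRN (GeneID 102183179), the precursor of granulins, which supports lysosomal function and is made by macrophages, was at 76.4, 78.2 and 80.3 FPKM in the Tibetan goats and at 365, 77.2 and 116 FPKM in the Jintang goats. The Tibetan goats were within a narrow range (78.3 ± 1.97 FPKM), Jintang 2 lay inside it, and Jintang 1 and 3 were above it. The log2 fold change was 0.92 (SE 0.53, limma adjusted p = 0.743), 0.27 without Jintang 1 and 1.39 without Jintang 2.

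TFEB (GeneID 102174171), the transcription factor of lysosomal genes, was at 15.2, 9.01 and 11.03 FPKM in the Tibetan goats and at 7.43, 4.83 and 9.30 FPKM in the Jintang goats. Jintang 3 lay between Tibetan 2 and Tibetan 3, so the breeds overlapped, and the mean log2 fold change of -0.65 (SE 0.32, limma adjusted p = 0.743) was the most negative of the set. Without Jintang 3 every Jintang value was below every Tibetan value (log2 fold change -0.84), as for 24.1% of all tested genes, and without Jintang 2 the log2 fold change was -0.42. TFEB was 0.752 times the mean of the other goats in Jintang 1 and was highest in Tibetan 1. These are transcript levels, and TFEB activity is set mainly by where the protein is in the cell. A relation of TFEB to the other lysosomal genes was not tested.

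**Figure D4:**
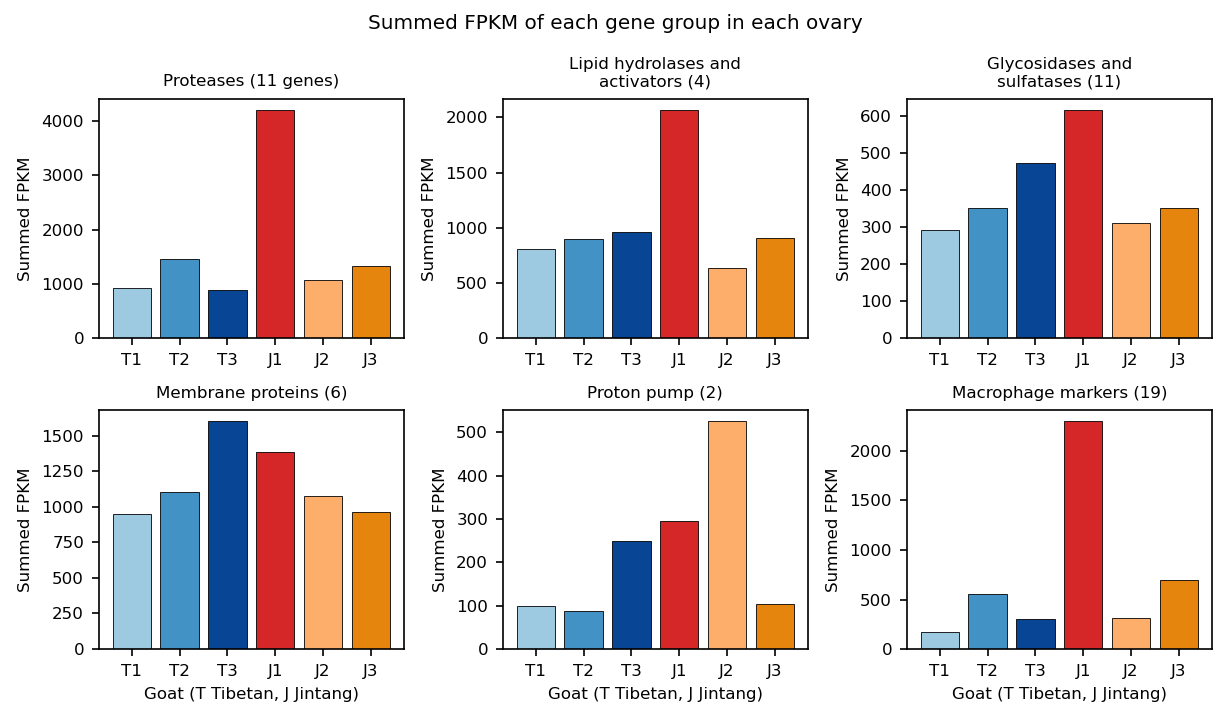
Summed FPKM of 5 role groups and of 19 macrophage markers in each ovary (bars; T, Tibetan; J, Jintang; 1 bar is 1 goat). Jintang 1 is highest for proteases (4201), for lipid genes (2065) and for macrophage markers (2296), Tibetan 3 for membrane proteins (1599) and Jintang 2 for the proton pump (525).

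Macrophage markers in sum, most proteases and GRN were highest in Jintang 1. The summed FPKM of 19 markers was 171, 560 and 303 in Tibetan 1, 2 and 3 and 2296, 316 and 701 in Jintang 1, 2 and 3. The marker sum was lowest in Tibetan 1, where 6 of the 11 proteases were also lowest (21% of all tested genes) and CTSF was highest. Outside Jintang 1, GRN stayed between 76.4 and 116 FPKM and, as the marker sum, was highest in Jintang 3. Jintang 1 was highest in 17 of the 18 tested markers, and 18 of 18 had a positive fold change, with a median of 1.22, or 0.53 without Jintang 1. Of the defining markers, CSF1R, the macrophage growth factor receptor, was at 9.08, 16.0 and 9.04 FPKM in the Tibetan goats and at 62.1, 15.8 and 16.4 FPKM in the Jintang goats. CD68, itself a lysosomal membrane protein, was at 14.0, 62.8 and 17.5 FPKM in the Tibetan goats against 234, 9.83 and 67.3 in the Jintang goats. CD14, a lipopolysaccharide co-receptor, was at 56.1 FPKM in Jintang 1, and the next highest goat was Tibetan 3 with 19.7 FPKM.

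PTPRC, a marker of all leukocytes, did not single out Jintang 1, at 19.1 FPKM there, 20.0 in Jintang 3 and 16.9 in Tibetan 2. Of the 19 markers only MARCO was listed at 0, in Jintang 3, and it stayed under 1 FPKM in every goat. The summed FPKM of 8 fibroblast and matrix genes was also highest in Jintang 1, at 11226, against 6035 and 3671 in the other Jintang ovaries and between 2193 and 3894 in the Tibetan ovaries. COL1A1, COL1A2 and COL3A1, the fibrillar collagens, made up most of that sum. PDGFRA, a receptor of fibroblasts, was highest in Jintang 3 (82.4 FPKM, against 50.2 in Jintang 1), as was DCN, which encodes decorin (1370 against 1210 FPKM). Smooth muscle markers went the other way, at 3655 FPKM in Jintang 1, 2009 in Jintang 2, 7958 in Jintang 3 and between 4044 and 8086 in the Tibetan ovaries. The part of macrophages or fibroblasts in the values of the lysosomal genes was not tested.

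Other lysosomal hydrolases, from a list that excluded the 36 genes, also had their highest value most often in Jintang 1. Of 33 tested genes, 23 were positive with a median log2 fold change of 0.21 (-0.01 without Jintang 1), 0 passed limma's adjusted threshold, and Jintang 1 was highest in 19. LIPA, the acid lipase that frees cholesterol from lipoproteins, had the smallest p, at 7.69, 50.9 and 18.9 FPKM in the Tibetan goats and at 152, 48.5 and 47.4 FPKM in the Jintang goats. GGH, a hydrolase of folate polyglutamates, was without overlap, at 6.65, 15.2 and 24.2 FPKM in the Tibetan goats against 28.4, 36.1 and 25.2 in the Jintang goats. The limma adjusted p was 0.743 for both genes.

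Other lysosomal membrane proteins and transporters had 15 of 25 positive and a median of 0.14, or -0.12 without Jintang 1. The summed FPKM of the 27 genes found from that list was 2481 in Jintang 1 and between 906 and 1632 in the other goats. NPC1, which exports cholesterol from lysosomes, was at 3.66, 4.23 and 10.1 FPKM in the Tibetan goats and at 16.2, 29.8 and 7.02 FPKM in the Jintang goats, with Jintang 2, Jintang 1 and Tibetan 3 on top as for ATP6V0D1. LAPTM5, which is also in the macrophage list, was highest in Jintang 1 (292 FPKM), Jintang 3 (164) and Tibetan 2 (142). TMEM192, a membrane protein often tagged to isolate lysosomes, was lower in every Jintang ovary (3.33, 3.84 and 4.43 FPKM) than in every Tibetan ovary (5.65, 5.26 and 6.67 FPKM). None of these 3 genes passed (limma adjusted p = 0.743).

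The other subunits of the proton pump had 11 of 17 positive and a median of 0.16, or 9 of 16 and 0.01 without Jintang 1. ATP6V0B was at 89.7, 109 and 137 FPKM in the Tibetan goats against 226, 197 and 95.3 in the Jintang goats, and ATP6V1F at 92.3, 95.0 and 160 FPKM in the Tibetan goats against 184, 184 and 106 in the Jintang goats. Both had the 3 highest values in Jintang 1, Jintang 2 and Tibetan 3. ATP6V0D2, an isoform of ATP6V0D1 that is prominent in osteoclasts and macrophages, was at most 5.74 FPKM, in Jintang 1, and was listed at 0 in Tibetan 1.

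Sorting, nutrient-sensing and autophagy genes had medians near that of all genes. Among the genes that sort enzymes to lysosomes, 8 of 20 were positive (median -0.11, and 0.01 with median-ratio scaling). GGA2, a Golgi adaptor for mannose phosphate receptors, was at 28.7, 30.3 and 26.8 FPKM in the Tibetan goats against 44.9, 50.5 and 31.0 in the Jintang goats. VPS11, a subunit of the tethering complexes for late endosomes and lysosomes, stood at 26.7, 23.2 and 23.6 FPKM in the Tibetan goats against 18.6, 18.0 and 20.6 in the Jintang goats, and neither gene overlapped between breeds. AP1B1, an adaptor subunit, was highest in Jintang 2 (62.6 FPKM). Of 19 genes for TFEB relatives and nutrient sensing at the lysosome, 6 were positive (median -0.21). In that list TFE3 ranged from 32.3 to 58.6 FPKM over the Tibetan goats and from 27.4 to 33.3 over the Jintang goats, FLCN from 27.6 to 40.5 and from 20.3 to 26.9 FPKM, and LAMTOR2 from 36.8 to 63.6 and from 50.3 to 102 FPKM.

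Of 26 autophagy genes 12 were positive, with a median of -0.03, and 0 had an unadjusted p under 0.05 in limma. The median was 0.11 without Tibetan 2 and 0.09 with median-ratio scaling, each with 17 positive. GABARAP, which is attached to autophagosome membranes, ranged from 271 to 507 FPKM over the Tibetan goats and from 163 to 305 over the Jintang goats. ULK1, the kinase that starts autophagy, was highest in Jintang 1 (33.1 FPKM), where it was above the 14.3 and 17.7 FPKM of the other Jintang ovaries. ATG14 averaged 8.71 ± 3.09 and 5.57 ± 2.30 FPKM (SD, n = 3). None of the genes named from these lists passed limma's test, with adjusted p from 0.743 to 0.758.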

How the data were processed

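Total RNA from 1 ovary sample per goat was extracted with TRIzol and sequencing libraries were prepared with NEBNext reagents (per the labels' protocols). The authors deposited FPKM values, 1 table per goat with 17504 genes, per the file headers. RSEM 1.2.0, Bowtie2 2.1.0 and TopHat2 2.0.10 are named, without their roles, in the submitters' processing notes. The genome build, the read length and whether strand was kept are not given there. FPKM is relative within a library, so a few abundant genes can lower the rest, and copies of similar cathepsin genes could share reads. No sequence is shown because none was used here.

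NCBI GeneIDs were given symbols from a RefSeq gene table of goat assembly ARS1.2 (16459 by GeneID, 9 by transcript accession). The 13067 genes that reached 1 FPKM in 3 or more libraries were fitted with limma 3.58.1 in R 4.3.3 on log2(FPKM + 1), with an intensity trend and breed as the only term. P-values were 2-sided and Benjamini-Hochberg adjusted over all tested genes at a threshold of 0.05. They set the difference between the breeds against the spread between goats of a breed. Fold changes on this scale understate those of low genes. The procedure was tested on simulated data with 50 changed genes at each of 4 sizes. It recovered 8% of them at a log2 fold change of 1, 58% at 2, 86% at 3 and 92% at 4, with 4 false calls. Differences of the size seen in the set could therefore often be missed. Relative depth came from the most common ratio of the same gene between a library and Tibetan 1 at 0.15 to 1 FPKM. Only ratios near 1 were searched, so a large difference in depth could not have been found. Tables were handled with Python 3.11.15, pandas 2.3.3 and numpy 2.4.6, and figures drawn with matplotlib 3.10.9.

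The genes of the set and all lists were chosen with earlier results of these data known. By rule, values in every goat are given for genes of the set with an unadjusted p under 0.05 or without overlap, the highest gene of each role, TFEB and GRN, and up to 3 genes with the smallest p from each companion list (hydrolases, membrane proteins, pump subunits, sorting, nutrient sensing, autophagy, cystatins). Other values were added after they were seen. HSD3B1 was matched as 3BHSD by name. Some results are not reported here. Alternatives were a pseudocount of 0.1, no filter, a filter of 5 FPKM, median-ratio and TPM scaling, no trend, a replicate block, and leaving out each goat.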

Additional observations from a re-analysis of the deposited data

How the results depend on the processing

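No gene of the set had an adjusted p under 0.05 under any of the 13 alternatives. Over all genes limma called 0 in each except without Jintang 3, which gave 12, all higher in Jintang ovaries and none of the 36, so leaving out 1 goat gave 0 to 12 calls. Leaving out 1 goat gave 1 to 8 genes of the set at an unadjusted p under 0.05 (3 with all goats). It gave 3 to 10 without overlap (3 with all goats, and 5 with median-ratio scaling). Both ranges count either direction, and CLN3 and TFEB, for example, were lower without overlap when Tibetan 2 was left out. Smaller groups overlap less often by construction: without Jintang 2, 5.95% of all tested genes lay higher without overlap and 9.9% lower. Without Tibetan 2 the shares were 7.99% and 14.5%, and without Jintang 1 they were 5.68% and 8.41%. The median of the set ran from 0.02 (without Jintang 1) to 0.49 (without Jintang 2). Median-ratio scaling turned 3 log2 fold changes positive, CD63 (0.0194), MAN2B1 (0.0311) and PPT1 (0.0488), which follows from its shift of 0.12 in the median of all genes, since these genes lay between -0.11 and -0.08. All 36 kept their sign with the other pseudocount, both filters, TPM scaling, no trend and the block.

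Leaving out 1 goat reversed the sign of 15 genes. Their log2 fold changes ran from -0.12 to 0.78 for ASAH1, -0.32 to 0.17 for CD63, -0.46 to 0.70 for CTSK, -0.28 to 0.17 for FUCA1 and -0.18 to 0.49 for GLA. They ran from -0.18 to 0.59 for HEXA, -0.22 to 0.26 for IDS, -0.44 to 0.0266 for LAMP2, -0.53 to 0.36 for MAN2B1 and -0.0431 to 0.33 for NAGLU. For NEU1 the range was -0.0157 to 0.35, for PPT1 -0.33 to 0.27, for PSAP -0.27 to 0.61, for SGSH -0.25 to 0.60 and for TPP1 -0.21 to 0.47.

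Goats with the same number in their titles did not deviate together (correlations over genes of -0.02, -0.21 and -0.47), and no Tibetan goat correlated best with its own number. With the replicate block limma called 0 genes, 3 genes of the set had an unadjusted p under 0.05 and all genes gave 581 such genes in place of 806. Absolute depth is unknown, so no counting error can be given for low genes such as MANBA or TFEB.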

Other observations

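Among inhibitors of proteases, LXN, which encodes latexin, a carboxypeptidase inhibitor, stood at 122 FPKM in Jintang 1 and 149 FPKM in Jintang 2 whereas the remaining 4 goats had 3.44 to 8.85 FPKM (limma log2 fold change of 2.89, adjusted p = 0.743). SERPINB1, an inhibitor of neutrophil proteases, was at 160 FPKM in Jintang 2 and between 44.8 and 65.1 FPKM in the others. CST6, a secreted cystatin, was highest in Jintang 1 (22.4 FPKM) and lowest in Jintang 2 (2.86 FPKM). All 4 tested genes of that list had a positive fold change, with a median of 0.29, and 0 passed limma's adjusted threshold, while 1, LXN, had an unadjusted p under 0.05.

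ACP5, tartrate-resistant acid phosphatase, which marks osteoclasts and some macrophages, was at 24.1, 54.3 and 20.9 FPKM in the Tibetan goats and 238, 10.96 and 97.5 FPKM in the Jintang goats. Jintang 1, Jintang 3 and Tibetan 2 were its 3 highest ovaries, as they were for CTSS, and DCSTAMP, OCSTAMP and CALCR, which mark osteoclasts, were under 1 FPKM in every goat. The ratio of CTSB to LAMP1 within a library was 2.17, 5.91 and 3.25 in Tibetan and 10.8, 4.71 and 4.09 in Jintang ovaries. It describes that pair of genes only, not proteases against membrane proteins. The ratio of LAMP1 to LAMP2 stayed between 0.643 and 1.11.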
